A study of Mus musculus with 27 samples.

Results

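The Hoxd cluster was mapped here at 781 CpG positions in 17 runs, out of 871894 positions in 18447 runs over the genome that had a methylation level in every library. The members were all positions on mouse chromosome 2 between 74660000 and 74770000 (build mm10), the stretch from Hoxd13 to Hoxd1, that had a value in all 27 libraries, joined into runs wherever neighbours lay at most 200 bp apart. The rule itself used no methylation value, but the cluster was chosen with earlier results of these data known. The cells were C2C12, a mouse muscle cell line grown as myoblasts in fetal bovine serum and differentiated in 2% horse serum, and every library came from cells shocked with 50% horse serum for 2 h, so there was no library of unshocked cells among them. DNA was taken at 9 time points spaced 6 h apart, the first at 12 h and the last at 60 h, and 3 libraries were made for each. Methylation was measured by reduced representation bisulfite sequencing, in which a restriction enzyme enriches CpG-rich DNA and bisulfite separates methylated from unmethylated cytosine. The labels do not say whether the 3 libraries of a time point came from separate cultures, so the p-values here reflect the spread among these libraries, and that spread may be technical.

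Hoxd genes encode homeodomain transcription factors that lie side by side on one strand and are used in order along the body axis and the limb, with the genes at the Hoxd13 end active in the most posterior and distal tissue. In most cells the CpG-rich starts of Hox genes are kept free of methylation and are held silent, where silent, by Polycomb proteins. Methylation of Hox CpG islands is known from tumours and from cultured cells. No expression was measured in these libraries, so a level of methylation says nothing here on whether a gene was transcribed.

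At 4 gene starts the map reaches into the bases just in front of the start, and these bases are shown to place the levels described further on. The 250 bases before each start are given from RefSeq (GRCm38.p6, the assembly that mm10 names; + strand, ending at the last base before the start), with the CpGs that had a level in every library in capitals. RefSeq promoter entries were found for all 9 Hoxd genes, and those of Hoxd13, Hoxd11, Hoxd8, Hoxd3 and Hoxd4 held no such CpG in these bases. The windows lie at chr2:74674763-74675012 for Hoxd12, chr2:74691641-74691890 for Hoxd10, chr2:74697513-74697762 for Hoxd9 and chr2:74762730-74762979 for Hoxd1.
Hoxd12: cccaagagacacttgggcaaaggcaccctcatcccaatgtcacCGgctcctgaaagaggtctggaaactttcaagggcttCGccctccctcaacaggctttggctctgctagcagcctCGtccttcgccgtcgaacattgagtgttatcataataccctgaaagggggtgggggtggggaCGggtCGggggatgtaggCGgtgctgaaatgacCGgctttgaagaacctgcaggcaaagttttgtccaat
Hoxd10: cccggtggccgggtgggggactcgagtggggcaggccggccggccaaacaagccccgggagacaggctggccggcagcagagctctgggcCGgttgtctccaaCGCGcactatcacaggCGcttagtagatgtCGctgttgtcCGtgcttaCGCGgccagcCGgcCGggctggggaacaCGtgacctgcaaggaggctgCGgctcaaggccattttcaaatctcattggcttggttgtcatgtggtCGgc
Hoxd9: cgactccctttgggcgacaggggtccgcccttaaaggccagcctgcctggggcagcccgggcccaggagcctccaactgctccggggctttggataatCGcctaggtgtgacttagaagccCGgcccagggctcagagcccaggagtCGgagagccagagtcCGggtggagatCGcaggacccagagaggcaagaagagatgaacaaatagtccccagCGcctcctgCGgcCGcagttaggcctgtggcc
Hoxd1: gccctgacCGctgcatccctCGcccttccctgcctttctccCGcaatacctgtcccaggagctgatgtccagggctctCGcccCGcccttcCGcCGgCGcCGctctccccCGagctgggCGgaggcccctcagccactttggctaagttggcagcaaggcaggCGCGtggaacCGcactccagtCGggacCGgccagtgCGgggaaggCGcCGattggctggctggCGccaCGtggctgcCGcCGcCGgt
These windows held 10 CpGs for Hoxd12 (7 measured), 20 for Hoxd10 (13 measured), 13 for Hoxd9 (8 measured) and 24 for Hoxd1 (24 measured). For scale, the median over 32851 RefSeq promoter entries was 6 CpGs in the same 250 bases.

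The whole cluster sat at an intermediate level. Averaged over its 781 positions, the level was 33.2% ± 1.43 (SD over 27 libraries), with 29.4% in the lowest library, 33.4% in the median library and 35.05% in the highest. Of the 17 runs, 15 had a mean between 10% and 50%, 2 lay under 10% and 0 reached 50%. With the median over the positions of a run in place of the mean, 13 lay at 10% to 50%, 3 under 10% (run 10 at 8.13%) and 1 above 50% (run 17 at 52.9%). At single positions, 406 had a mean of 25% to 50%, 211 of 10% to 25%, 120 of 50% to 75% and 44 under 10%, and 0 reached 75%. The intermediate level was present within single libraries: of the 459 run levels (17 runs in 27 libraries), 382 lay from 10% to 75%, 77 lay under 10% and 0 lay above 75%. The share of Hoxd positions at 10% to 75% was between 81.05% and 95.52% in every library, with a median of 88.35%, against a median of 23.68% for all positions of the genome. Positions above 75% made up a median of 1.28% of the cluster per library. Each level is a fraction from the DNA of many cells, at unknown read depth and possibly smoothed along the genome. Partly methylated cells and a mixture of methylated and unmethylated alleles therefore cannot be told apart.

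**Figure D1:**
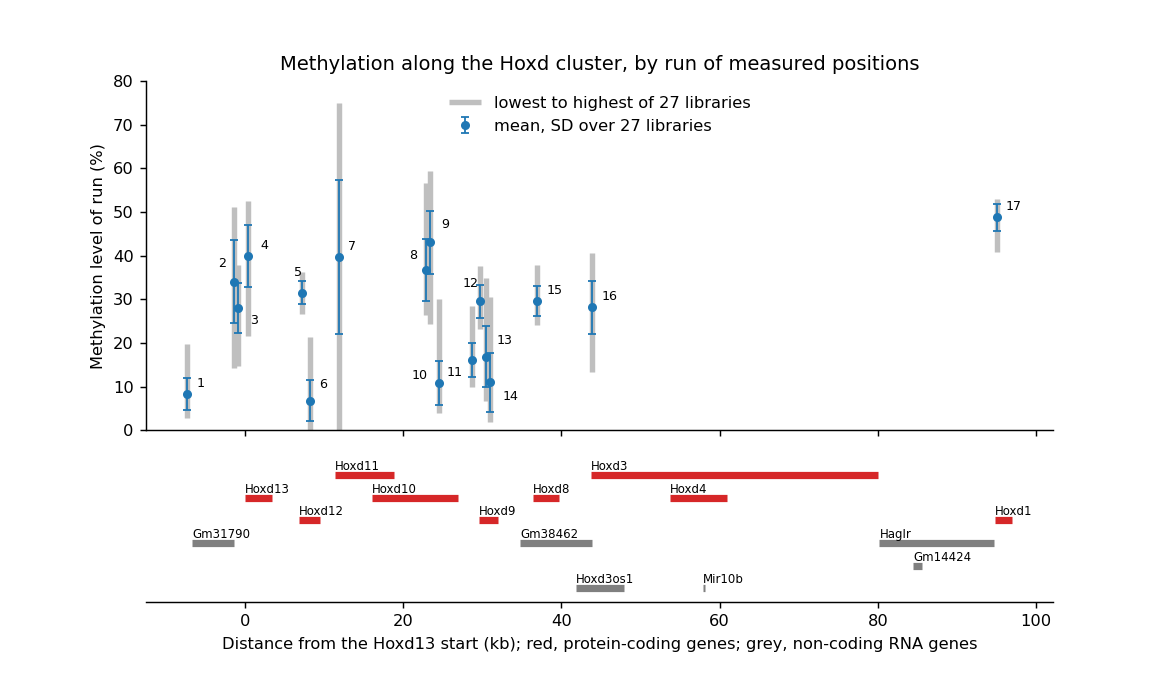
Mean methylation level of each of the 17 runs (points, with SD over 27 libraries, and grey bars from the lowest to the highest library) against distance from the Hoxd13 start in kb, above the annotated genes. Most runs lie between 10% and 50%, runs 1 and 6 lie under 10%, and no run was measured across the 50429 bp between Hoxd3 and Hoxd1.

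The runs covered little of the cluster. They sum to 7368 bp of the 102958 bp between the first and the last position, and they gather at gene starts and first parts of genes. Between run 16 at the start of Hoxd3 and run 17 at Hoxd1 lay 50429 bp with no kept position, which hold most of Hoxd3, all of Hoxd4, the microRNA gene Mir10b and nearly all of the long non-coding RNA gene Haglr, so nothing can be said of these. The file listed another 70 positions in the interval that lacked a value in at least 1 library and were left out. They formed 6 groups with mean levels from 18.4% to 54.4%, of which the largest, 37 positions just beyond run 15 in Hoxd8, had a mean of 42.0% over the libraries that had a value. Levels of neighbours were not separate measurements. When each library was expressed as its deviation from the mean, pairs of Hoxd positions 1 bp apart (252 pairs) correlated with r = 1.00, those 21 to 40 bp apart with r = 0.864, those 61 to 80 bp apart with r = 0.427 and those 81 to 100 bp apart with r = 0.218 (Pearson), as a description across positions. Positions 1 bp apart differed by 0.186 points on average. The labels and the file do not state whether the authors smoothed the levels along the genome, so the level at a single CpG, and the width of any trough or edge, may draw on CpGs around it. Read depth is unknown.

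At the posterior end, Hoxd13, whose product patterns digits and the urogenital tract, was measured just after its start and was at a middle level. Run 4 (74668304 to 74668943, 82 positions, beginning 79 bp after the Hoxd13 start) had a mean of 39.9% ± 7.11 (SD over 27 libraries), from 21.6% through a median of 40.04% to 52.4%. It was 1 of the 3 highest runs by mean. This rank was not fixed: run 7 in Hoxd11 had 39.7%, and over other settings run 4 ran from 37.9% to 40.7%. Within it, the stretch 200 to 299 bp after the start averaged 50.1% ± 21.03 and that at 100 to 199 bp 32.7% ± 11.7, but the first was higher in only 22 of 27 libraries, so the difference was not present in all of them. Run 3, ending 836 bp in front of Hoxd13 (11 positions), was at 28.01% ± 5.77. Run 2 (74666801 to 74666907, 8 positions), at one end of the non-coding RNA gene Gm31790, was at 34.0% ± 9.57 and had the second largest spread of the 17 runs, from 14.3% (12 h, replicate 2) to 51.3% (12 h, replicate 3), 2 libraries of one time point. Run 1 (74660872 to 74661070, 13 positions) lay in Evx2, a homeobox gene next to Hoxd13. It was low, at 8.30% ± 3.71, from 2.86% through 8.08% to 19.7%.

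Hoxd12, another posterior gene of limb patterning, had its start inside a single long run with a narrow trough. Run 5 (74674706 to 74676060, 97 positions) averaged 31.5% ± 2.66, from 26.6% through 31.4% to 36.2%, the smallest spread between libraries of the 17 runs. In the sequence above, the first measured CpG, 207 bp before the start, had 49.8% ± 10.4, and CpGs 4 and 5, at 70 and 65 bp before it, had 6.80% ± 4.88 and 6.77% ± 5.15. CpG 1 was higher than CpG 5, 142 bp away, in 27 of 27 libraries, by 43.0 points on average (28.5 to 66.5 points). As 100 bp stretches, the last 100 bp before the start had 9.77% ± 5.93 and the first 100 bp after it 34.0% ± 5.71, and the stretch before the start was lower in 27 of 27 libraries. Further into the gene the level was 53.9% ± 5.60 at 200 to 299 bp and 16.3% ± 6.52 at 600 to 699 bp, again with the first above the second in 27 of 27 libraries. Run 6 (74676352 to 74676473, 5 positions), still within Hoxd12 and beyond a gap of 291 bp from run 5, was the lowest of all at 6.78% ± 4.67, from 0% in 1 library to 21.4%, and lay below run 5 in 27 of 27 libraries. The stretches and CpG pairs compared here and further on were chosen after their levels were seen, so they are descriptions with no test.

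Hoxd11, a further posterior gene with a part in forearm and kidney development, was barely covered. Run 7 (74680055 to 74680114, 5 positions, 497 bp after the start) had a mean of 39.7% ± 17.7, with 0% in the lowest library (54 h, replicate 1), 41.4% in the median library and 75% in the highest (12 h, replicate 1). This spread was the largest of the 17 runs and larger than in 99.3% of all runs of the genome. Spread was larger at higher levels, however. The median SD was 1.695 points in all runs under 10% and 6.395 points (upper quartile 9.07) in those at 25% to 50%. Within time points run 7 ranged widely as well, as at 54 h, with 0%, 46.2% and 59.5%. Its level is therefore known only roughly.

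Hoxd10, which acts in limb and spinal motor neuron patterning, was higher in front of its start than in its body. Run 9 (74691435 to 74691912, 40 positions, holding the start at 74691891) averaged 43.1% ± 7.28, from 24.3% (12 h, replicate 3) through 43.6% to 59.4% (48 h, replicate 1). In the sequence above, the first 4 measured CpGs, 160 to 131 bp before the start, had 57.9%, 58.4%, 58.2% and 58.1%, the ninth, 89 bp before it, 46.6%, the twelfth, 51 bp before it, 28.9%, and the last, 4 bp before it, 14.5% ± 8.14. The fourth was higher than the last, 127 bp away, in 27 of 27 libraries, by 43.5 points on average (12.6 to 84.6 points). The one measured position between the start and run 10, in the first 100 bp after it, had 18.2% ± 10.3. Run 8, 684 to 929 bp before the start (20 positions), was at 36.8% ± 7.07. Run 10 (74692388 to 74693028, 39 positions, beginning 497 bp after the start) was at 10.9% ± 5.05, from 3.97% through 9.92% to 30.1%, and lay below run 9 in 26 of 27 libraries. Between 800 and 899 bp after the start its level was 4.15% ± 4.44. All 3 runs lie inside the annotated extent of Hoxd10, which begins at 74684273, upstream of the start used here.

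Hoxd9, which acts with its neighbours in limb patterning, had 3 runs, and the level was lower further into the gene. Run 12 (74697611 to 74698355, 107 positions, holding the start at 74697763) averaged 29.5% ± 3.82, from 23.2% through 28.8% to 37.6%. Its measured CpGs before the start had 44.1% ± 16.4 at 152 bp, 28.6% ± 9.69 at 77 bp and 32.2% ± 6.29 at 19 bp, without a trough like that at Hoxd12. Inside the gene the level was 42.9% ± 6.51 at 100 to 199 bp and 19.2% ± 6.20 at 400 to 499 bp, the first above the second in 27 of 27 libraries, by 0.104 to 45.8 points. Run 13 (74698626 to 74698769, 22 positions) was at 16.8% ± 6.96 and run 14 (74699141 to 74699297, 13 positions) at 11.03% ± 6.74. Run 12 was higher than run 13 in 26 of 27 libraries and higher than run 14 in 27 of 27. In front of the gene, run 11 (74696794 to 74696981, 9 positions) was at 16.1% ± 3.95.

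Hoxd8 and Hoxd3 were measured only after their starts. Run 15 (74704811 to 74705594, 141 positions), which begins 196 bp after the Hoxd8 start and also lies in the antisense-oriented non-coding RNA gene Gm38462, averaged 29.7% ± 3.44, from 24.2% through 29.7% to 38.0%. Within it the level was 39.2% ± 8.25 at 700 to 799 bp after the Hoxd8 start and 19.9995% ± 6.59 at 200 to 299 bp, the first higher in 26 of 27 libraries. Run 16 (74712040 to 74712253, 23 positions), 47 to 260 bp after the Hoxd3 start, held the start of Gm38462 on the other strand and overlapped a further non-coding gene, Hoxd3os1. It averaged 28.2% ± 6.03, from 13.4% through 27.05% to 40.6%. These levels cannot be assigned to one of the overlapping genes.

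Hoxd1, the most anterior gene of the cluster, had the highest run mean and a sharp edge in front of its start. Run 17 (74762683 to 74763830, 146 positions, the longest list of positions) averaged 48.8% ± 3.11, from 40.9% (60 h, replicate 1) through 49.3% to 53.0% (48 h, replicate 3). It was above run 5 in 27 of 27 libraries, above run 9, the next highest, in 21 of 27, and the highest of all runs in 13 of 27, so its first place among the upper runs was not fixed in single libraries. In the sequence above, the first 11 CpGs, 242 to 131 bp before the start, had between 19.3% and 30.2%. The twelfth, only 44 bp beyond the eleventh, had 58.7% ± 16.7 against 27.1% ± 8.56 for the eleventh, and was higher in 26 of 27 libraries, by 31.6 points on average (-5.31 to 50.6 points). The level then peaked at 70.6% ± 14.03 at the fifteenth CpG, 66 bp before the start, and was 53.4% ± 11.4 at the last, 4 bp before it. As stretches, the last 100 bp before the start had 61.5% ± 11.4 and the 100 bp before those 22.1% ± 6.77, higher next to the start in 27 of 27 libraries by 13.9 to 58.0 points. The twelfth CpG lies at 74762893, and Haglr is annotated to end or begin at 74762896, within 3 bp of it. A second edge closed this block inside the gene: the level was 65.1% ± 4.42 at 300 to 399 bp after the start, 50.9% ± 6.64 at 500 to 599 bp and 24.2% ± 7.14 at 600 to 699 bp, and the first of these exceeded the last in 27 of 27 libraries, by 28.4 to 54.2 points.

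**Figure D2:**
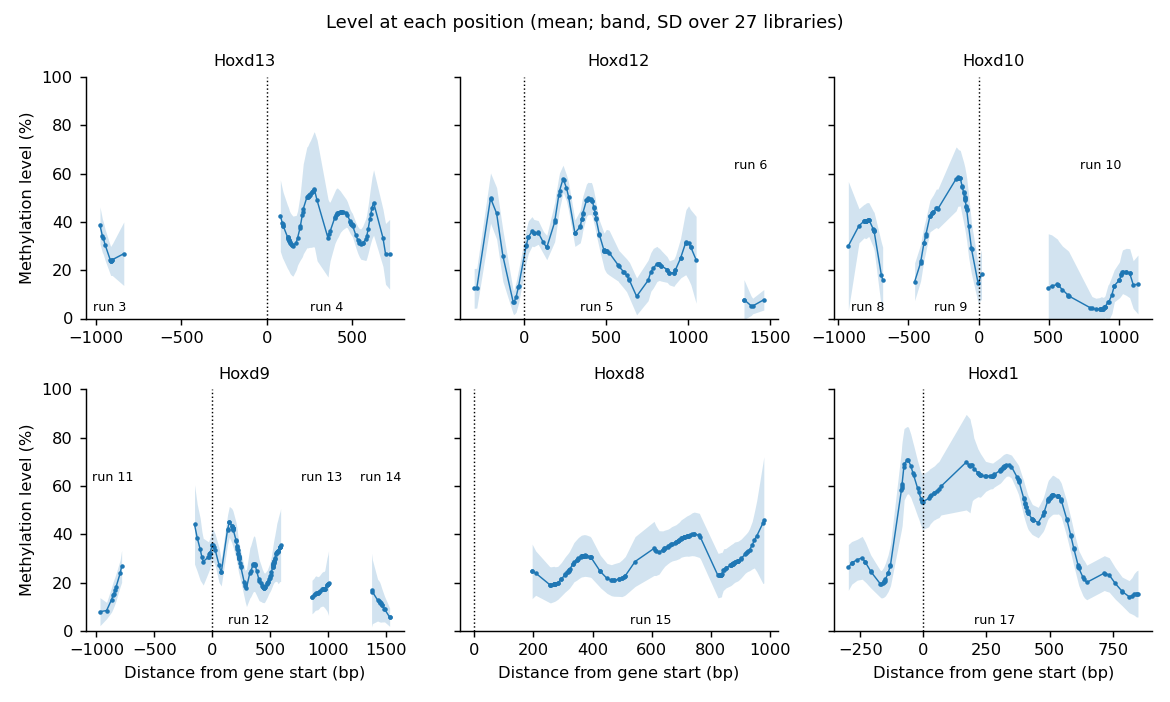
Methylation level (%) at each position (points; band, SD over 27 libraries) against distance in bp from the starts of Hoxd13, Hoxd12, Hoxd10, Hoxd9, Hoxd8 and Hoxd1. In the last 100 bp before the start the level goes down to 6.77% at Hoxd12 and 14.5% at Hoxd10 and up to 70.6% at Hoxd1.

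Around the start as a whole, from 1000 bp before to 500 bp after it, the order by mean was Hoxd1 (53.6% ± 3.52, SD over 27 libraries), Hoxd11 (40.7% ± 18.0, a single position), Hoxd10 (40.5% ± 5.72), Hoxd13 (39.3% ± 7.97), Hoxd12 (37.0% ± 2.55), Hoxd3 (28.2% ± 6.03), Hoxd9 (27.98% ± 3.28) and Hoxd8 (25.2% ± 5.49), while Hoxd4 had no position. The lowest library of Hoxd1 (45.9%) lay above the highest of Hoxd12 (42.7%), Hoxd3 (40.6%), Hoxd9 (36.7%) and Hoxd8 (34.9%). It lay below the highest of Hoxd11 (76.8%), Hoxd13 (54.8%) and Hoxd10 (52.5%). Among the measured starts other than Hoxd1, all ranges over libraries overlapped one another. Even the lowest library of Hoxd12 (31.2%) lay below the highest of Hoxd3, Hoxd9 and Hoxd8. The order changed with a window of 250 bp before to 50 bp after the start, in which Hoxd10 (47.2%) came before Hoxd1 (44.9%) and Hoxd9 (33.7%) before Hoxd12 (27.3%). In neither window did it follow the order of the genes along the chromosome. Across the 17 runs, the mean level had a Spearman correlation of 0.0760 with position, 0.378 with the number of measured CpGs per 100 bp, 0.316 with run length and 0.421 with the number of positions, as descriptions of runs that share their libraries. The map as a whole was alike between libraries: over 351 pairs of libraries, the Pearson correlation of the 17 run levels had a median of 0.817 and ran from 0.113 to 0.954, with a median of 0.831 within a time point (27 pairs) and 0.815 between time points (324 pairs).

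**Figure D3:**
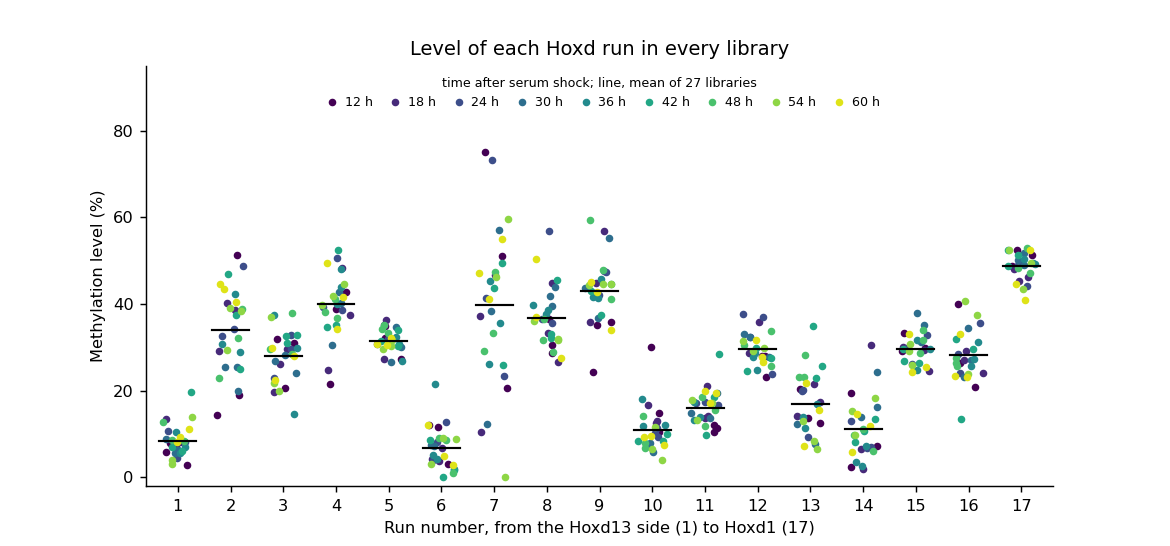
Level (%) of each of the 17 runs in every library (points, coloured by hours after the serum shock) with the mean of 27 libraries (line). Runs 5, 12, 15 and 17 are tight and run 7 in Hoxd11 spans 0% to 75%.

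Hoxd and Hoxa had nearby means but unlike runs. The mean over the cluster was 33.2% ± 1.43 in Hoxd, against 31.8% ± 1.36 in Hoxa, 17.4% ± 1.01 in Hoxb and 17.1% ± 0.841 in Hoxc (SD over 27 libraries), and Hoxd was higher than Hoxb and than Hoxc in 27 of 27 libraries and higher than Hoxa in 22 of 27. Among single runs, 15 of 17 Hoxd runs had 10% to 50%, 2 under 10% and 0 above, against 4, 13 and 7 of 24 Hoxa runs. Hoxb had 13 of 21 runs at 10% to 50%, 8 under 10% and 0 above, and Hoxc 1, 14 and 3 of 18. The median run was at 29.5% in Hoxd, against 7.83% in Hoxa, 10.7% in Hoxb, 4.48% in Hoxc and 6.23% in all 18447 runs, of which 27.3% lay at 10% to 50%. Within single libraries, the share of positions at 10% to 75% had a median of 88.35% in Hoxd, 23.07% in Hoxa, 58.05% in Hoxb and 12.11% in Hoxc, and the lowest Hoxd library (81.05%) lay above the highest Hoxb library (68.42%). The Hoxa, Hoxb and Hoxc intervals ran from their first to their last Hox gene, whereas the Hoxd interval also held runs 1 to 3 in front of Hoxd13. These comparisons are descriptions, with no test.

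**Figure D4:**
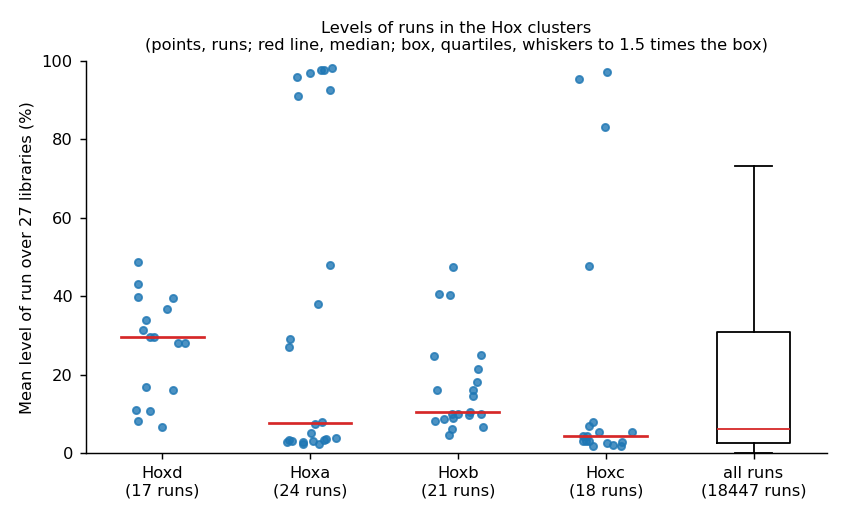
Mean level (%) of each run in the Hoxd, Hoxa, Hoxb and Hoxc clusters (points; red line, median) and of all 18447 runs (box, quartiles). Hoxd runs fill the range from 6.78% to 48.8%, whereas Hoxa has 13 runs under 10%, 4 at 10% to 50% and 7 higher.

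Whether the levels changed after the serum shock was the question of the time course, and no change was detected in the cluster. Of the 9 time means of the cluster, the highest was 34.2% ± 0.615 (48 h) and the lowest 32.1% ± 2.41 (60 h; SD over 3 libraries), a range of 2.04 points beside a pooled SD within time points of 1.49 points. The 3 tests were run with limma over all runs of the genome, with Benjamini-Hochberg adjustment: a 24 h cosine and sine, any difference between time points, and linear time. For the 24 h rhythm 0 of 17 Hoxd runs passed at an adjusted p of 0.05, where 0% of all runs did (smallest adjusted p 0.980), and 2 of 17 had an unadjusted p under 0.05, against 4.34% of all runs. For differences between time points 0 of 17 passed, where 0.00542% of all runs did (smallest adjusted p 0.899), with 2 of 17 at an unadjusted p under 0.05 against 4.3%. For linear time 0 of 17 passed, where 0% of all runs did (smallest adjusted p 0.976), with 1 of 17 against 4.99%. The median fitted amplitude of the Hoxd runs was 2.01 points, against 1.68 points in the 5041 runs of the genome at 10% to 50%. Upper 95% limits on the amplitude were below 10 points for 14 of 17 runs and ran from 2.75 points (run 17, Hoxd1) to 15.3 points (run 7, Hoxd11), so rhythms below these sizes remain possible in each run. For linear time the 95% limits on the slope were widest in run 7, from -22.5 to 20.3 points per 48 h. Known changes were also added to shuffled runs at 10% to 50%. For each test, 200 runs got 5 points, 200 got 10 and 200 got 20 in the same fit. At 10 points, an adjusted p under 0.05 recovered 92.5% of amplitudes and 60.5% of slopes per 48 h. Steps at a single time point were recovered in 21.5% at 10 points and 54.5% at 20 points, so changes between time points could be missed. These shares do not carry over to the 17 Hoxd runs and are probably too high for them. The adjustment is looser when many runs change at once, and the shuffled residuals from time means spread less than the data.

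The run with the smallest p for rhythm and for time points was run 13, inside Hoxd9. Its 3 libraries had 34.98%, 25.6% and 22.9% at 42 h and 23.0%, 28.1% and 23.1% at 48 h, then 13.02%, 8.30% and 6.63% at 54 h. Earlier they had 12.5%, 20.3% and 13.6% at 12 h, 21.4%, 14.1% and 17.5% at 18 h, 9.21%, 20.1% and 19.9% at 24 h, 7.57%, 12.4% and 13.6% at 30 h and 11.4%, 13.9% and 16.96% at 36 h, and later 7.33%, 21.8% and 15.6% at 60 h. All 6 libraries of 42 h and 48 h thus lay above all 21 others. The first day did not show the same height, with time means of 27.8% ± 6.34 at 42 h and 24.8% ± 2.93 at 48 h, against 17.7% ± 3.66 in the 18 h libraries and 16.4% ± 6.23 in those of 24 h (SD over 3 libraries). The fitted 24 h amplitude was 6.84 points (SE 1.47; limma, n = 27 libraries, p = 0.000381, adjusted p = 0.980 over all runs), and the test of time points had p = 0.00146 and an adjusted p of 0.899, so neither passed. Run 12, the neighbour 270 bp away that holds the Hoxd9 start, had an amplitude of 2.08 points (limma, n = 27 libraries, p = 0.103, adjusted p = 0.980).

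Both runs of Hoxd10 next to the start came next, and neither passed. Run 9 had 59.4%, 47.8% and 41.1% at 48 h and 35.7%, 35.1% and 24.3% at 12 h, with a highest time mean of 49.5% ± 9.24 at 48 h and a lowest of 31.7% ± 6.42 at 12 h (SD over 3 libraries). Its amplitude was 4.73 points (SE 1.68; limma, n = 27 libraries, p = 0.0314, adjusted p = 0.980). Its p depended on the period, with an unadjusted p of 0.550 at 20 h. Run 10 had 9.25%, 7.38% and 9.50% at 60 h and 14.9%, 10.5% and 30.1% at 12 h, and a slope of -7.86 points per 48 h (SE 2.58; limma, n = 27 libraries, p = 0.00515, adjusted p = 0.976). Its test of time points had p = 0.0387 (limma, n = 27 libraries, adjusted p = 0.990). Replicate 3 of 12 h held its highest value, and this library also had the largest share of positions at exactly 0 in the genome (25.4%, against 5.15% in the lowest library). From 74692388 to 74692533 the highest library had 100% at every position of run 10, beside means of 9.39% to 14.1%. If a single library held all of these values, it was replicate 3 of 12 h, since the next highest run level was 17.9% (36 h, replicate 3). Which library was highest at each position was not recorded. Read depth there is unknown. Without replicate 3 of 12 h the slope was -4.76 points per 48 h (limma, n = 26 libraries, unadjusted p = 0.0179). The range of its time means was 7.07 points without that library, against 11.5 points with it, and the test of time points then had p = 0.0189 (limma, n = 26 libraries, adjusted p = 0.989). Over all alternatives the unadjusted p of that test ran from 0.00354 to 0.179. Run 11, in front of Hoxd9, had the second smallest p for linear time, with a slope of 3.91 points per 48 h (SE 2.22; limma, n = 27 libraries, p = 0.0900, adjusted p = 0.976). That slope was 2.40 points without replicate 2 of every time point, 6.23 points without replicate 3 of every time point and 6.84 points with the median over positions, and its unadjusted p ran from 0.0269 to 0.341 over the alternatives.

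**Figure D5:**
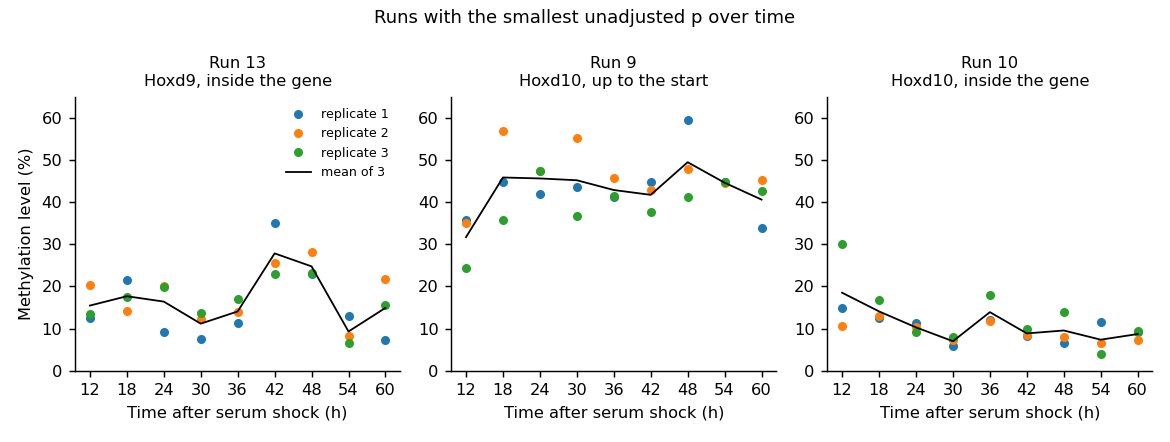
Level (%) of runs 13, 9 and 10 in each library by hours after the serum shock (points, coloured by replicate number; line, mean of 3). In run 13 the 6 libraries of 42 h and 48 h lie above the 21 others, and in run 10 a single library at 12 h reaches 30.1%.

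At single positions 0 of 781 passed in any of the 3 limma tests, where 0% (rhythm), 0.00413% (time points) and 0% (linear time) of all 871894 positions did. At an unadjusted p under 0.05 there were 111 for rhythm (14.2% of the cluster, against 3.91% of all positions), 81 for time points (10.4% against 4.17%) and 66 for linear time (8.45% against 4.48%). They were bunched in a few runs: of the 111, run 15 held 33, run 13 held all of its 22, run 5 held 20 and run 12 held 16. The counts depended on the scale. M-values are the log2 ratio of methylated to unmethylated level with 1 point added to each, and on that scale the counts were lower, at 56, 34 and 39. No share of all positions was recorded on the M-value scale, so whether the cluster exceeded the genome there cannot be judged. The smallest unadjusted p-values were 0.00119 for rhythm at 74698737 in Hoxd9 (amplitude 7.29 points, limma adjusted p = 0.953), 0.000614 for time points at 74705380 in Hoxd8 (range of time means 26.2 points, adjusted p = 0.519) and 0.00772 for linear time at 74668690 in Hoxd13 (8.53 points per 48 h, adjusted p = 0.975).

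Of the runs that overlap a Hoxa gene (21 runs, 11 genes), a Hoxb gene (17 runs, 10 genes), a Hoxc gene (12 runs, 9 genes), Evx1 (3 runs) or Evx2 (3 runs, of which 1 is run 1 here), 0 passed for rhythm, time points or linear time over all runs (limma). At an unadjusted p under 0.05 there were 1 Hoxa and 1 Hoxc run for rhythm and 0 of any list for the other tests. Over all runs of the genome the shares were 4.34% for rhythm, 4.3% for time points and 4.99% for linear time.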

How the data were processed

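DNA from C2C12 cells was profiled by reduced representation bisulfite sequencing in 27 libraries (9 time points, 3 each), grouped by the time and replicate in the labels. Per the submitters' processing notes, Trim Galore 0.4.0, cutadapt 1.9.1, Bismark 0.14.4, Bowtie2 and build mm10 were used (order and settings: not given in the sources used here). Labels spell the enzyme MpsI. The authors deposited 1 table of methylation levels, each a fraction between 0 and 1, by position and library, with no coverage, so depth is unknown and no interval from reads can be given.

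From it, levels were turned to percent, and positions with a value in every library were kept (871894 of 937644) and joined into runs (gaps up to 200 bp, at least 3 positions). Counted from 1, 99.98% of 230550 kept positions in RefSeq promoter windows fell on a CpG. Tests used limma 3.58.1 in R 4.3.3 on percentage points, with the code tested on simulated data, an adjusted p threshold of 0.05 and 95% limits. Described in full by rule were runs that hold a start, the 3 highest, 3 lowest and 3 most variable runs, and the 2 smallest p per test (1 for positions). The members and lists were chosen with earlier results of these data known. The alternatives were other scales, covariates, periods, run definitions, the replicate block and left-out libraries.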

Additional observations from a re-analysis of the deposited data

How the results depend on the processing

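The counts of Hoxd runs and positions past an adjusted p of 0.05 were 0 in all 219 alternative fits (limma), for rhythm, time points and linear time. Leaving out libraries gave 0 to 0 for each. Under the replicate block the counts were also 0, with 2 (rhythm), 3 (time points) and 1 (linear time) of 17 runs at an unadjusted p under 0.05. The share of all runs under that block was not recorded, so these unadjusted counts show no excess or lack. Libraries of the same replicate number deviated together very little. Their mean correlation was 0.00489 over 108 pairs, against -0.00242 over 216 pairs of unlike number, and 0 same-number pairs were over 0.1. Even so, 18 of 27 libraries correlated best with their own number out of 3. A weak pairing by number was not tested. The cluster mean of 33.2% was 31.7% as a median over positions and 27.005% as a mean of run means, which gives short runs more weight, and 33.1% to 33.3% with libraries left out. Of the gene start levels, 5 moved by more than 1 SD, 4 of them with the window of 250 bp before to 50 bp after the start (Hoxd12 27.3%, Hoxd10 47.2%, Hoxd9 33.7%, Hoxd1 44.9%). Of the 219 unadjusted counts, 30 moved by over 1.5 times. Of the run levels, 1 moved by more than 1 SD (run 17, 52.9% as a median over positions). The 74 refitted slopes of runs 10 and 11 kept their sign, while amplitudes and ranges of time means cannot change sign. The p of run 13 for rhythm ran from 6.99e-05 to 0.0136. A coverage minimum was not run, since the levels come without coverage, and shallow positions cannot be told from deep ones.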
